A study of Mus musculus with 6 samples.

Results

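The collagens and the ADAMTS genes were followed in the olfactory bulbs of mice with a plugged left nostril. Every gene whose mouse symbol is Col, a number and a chain (as in Col1a1), or begins with Adamts, was taken. This gave 68 genes of the 22095 in the table, of which 44 are collagens and 24 are ADAMTS genes, 5 ADAMTS-like genes included. Col4a3bp matches the letters but encodes a ceramide transfer protein, and it was left out. The samples were 6 libraries of polyadenylated RNA from 3 ICR mice, an outbred stock. A silica gel plug was placed in the left naris at postnatal day 30, the mice were perfused with saline, and both bulbs were dissected 60 days later. The left bulbs lie on the plugged side and the right bulbs, which serve as the comparison, on the open side of the same mice. No mouse without a plug was sampled, so what the sides would differ in without a plug and what follows the plug cannot be told apart. Genotype, sex and any pooling of animals are not given in the labels.

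Collagens are proteins of the extracellular matrix built from 3 chains wound into a triple helix. Fibrillar collagens form the fibres of connective tissue, collagen IV forms the mesh of the basement membrane around blood vessels, and collagen VI forms beaded filaments beside it. ADAMTS proteins are secreted zinc proteases with thrombospondin repeats. Some of them cut the N-terminal propeptide off procollagen, and others cut the large proteoglycans, such as aggrecan, that surround neurons in the adult brain. In the brain, collagen mRNA is known mainly from vessel walls and meninges, while several minor collagens are made by neurons.

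The libraries held 14571453 to 15590938 counts each, and the 3 counts that an observed 0 still allows came to 0.192 to 0.206 CPM (counts scaled to the total of the library). The library labelled left 1038 went against its label. Cdhr1, a mitral and tufted cell gene, stood at 0.755 CPM in it, and Cbln3, a cerebellar granule cell gene, stood at 1217 CPM. In the other 5 libraries these genes stood at 663 to 829 CPM and at 0.478 to 1.10 CPM. That library was therefore shown beside the others and kept out of the comparison, which set 2 left bulbs (mice 1037 and 1039) against 3 right bulbs (mice 1037, 1038 and 1039). Omp, the marker of mature olfactory sensory neurons, had 35.1 and 8.43 CPM in left bulbs, against 134, 123 and 105 CPM in right bulbs. The right bulb of mouse 1038 also stood apart in a few genes, described with the fibrillar and beaded-filament collagens. These are whole-tissue samples, so fewer cells of a type and less RNA per cell cannot be told apart.

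Of the 68 genes, 65 had enough counts to be tested. Libraries were scaled for the test by edgeR's TMM factors, 0.971 to 1.036. Log2 fold changes and ratios within mice therefore differ somewhat from ratios of the printed CPM. The comparison between the sides called 5 of the 65 (7.69%) at an adjusted p under 0.05 in edgeR's quasi-likelihood test, with adjustment over all genes tested. Of all 14412 genes tested, 9.62% were called, so collagen and ADAMTS genes were called about as often as genes at large. Adamts2, Adamts5 and Col16a1 were higher in left bulbs, which is 3 genes against a background of 3.16% of all genes. Col4a1 and Col4a2 were lower in left bulbs, against a background of 6.46%. DESeq2 and limma-voom called the same 5, and no other of the 65. At an unadjusted p under 0.05 in edgeR there were 18 of the 65, against 3573 of all 14412 genes tested. The median log2 fold change (left over right) was 0.02 over the 65 genes and 0.01 over all genes. Within 1.5-fold stayed 51 of the 65, a smaller share than the 13298 of all 14412 genes tested. The median was -0.04 over 43 collagens and 0.12 over 22 ADAMTS genes, and the collagen median changed sign, to 0.045, when libraries were scaled to their total. Every left bulb lay above every right bulb in 19 of them (29.2%, against 33.2% of all genes), and below in 6 (9.23%, against 13.2%). Outside fits with the mouse as a block, all p-values compare bulbs as separate samples, although the bulbs of a mouse share an animal.

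**Figure D1:**
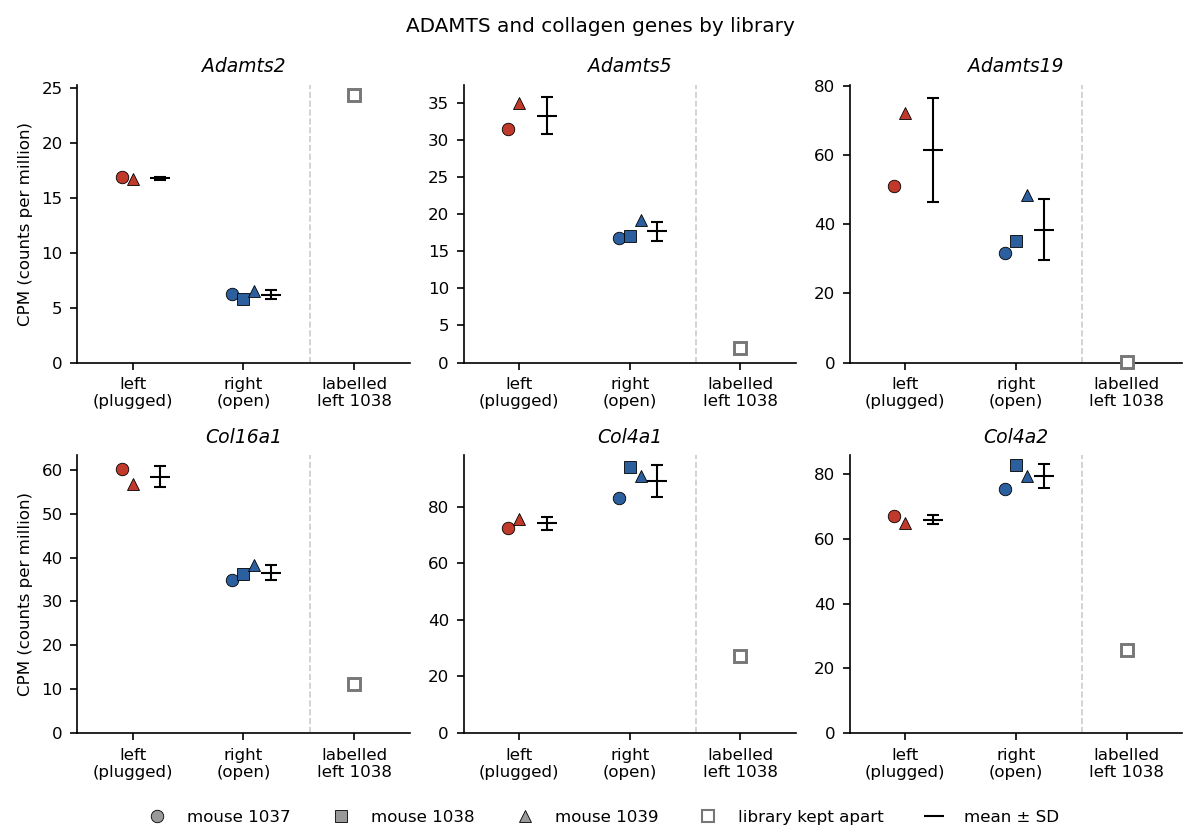
Each panel plots the CPM of 1 gene on the y axis in left (plugged) bulbs, right (open) bulbs and the library labelled left 1038, with a marker shape for each mouse and bars for mean ± SD. Adamts2, Adamts5 and Col16a1 lie higher in both left bulbs than in any right bulb, Col4a1 and Col4a2 lie lower, and Adamts19 lies higher without a call.

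The procollagen N-proteinases, which trim the N-terminal propeptides so that fibrils can form, are encoded by Adamts2, Adamts3 and Adamts14. Adamts2 (chromosome 11, 50602084 to 50807573 on GRCm38) had the largest log2 fold change of the 5 called genes. It had 16.9 and 16.7 CPM in left bulbs, against 6.22, 5.76 and 6.55 CPM in right bulbs. The values within each side lay close together, and the sides were far apart. The means were 16.8 ± 0.129 CPM (SD, n = 2) in left bulbs and 6.18 ± 0.396 CPM (SD, n = 3) in right bulbs. After TMM scaling the log2 fold change was 1.36 (SE 0.13, adjusted p = 7.19e-04 in edgeR). Within mice 1037 and 1039 the log2 ratio, computed on TMM-scaled CPM with 0.5 added, was 1.29 and 1.22. In the 14 alternatives that left out the library labelled left 1038, its log2 fold change ranged between 1.31 and 1.44. It was called in each of them that kept both left bulbs. Its log2 fold change was 1.355 without the left bulb of mouse 1037 and 1.381 without that of mouse 1039. These alternatives share libraries, and the fit without mouse 1038 repeats the fit without its right bulb. With all 6 libraries no gene was called by edgeR, and Adamts2 had a log2 fold change of 1.61 (adjusted p = 0.513).

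Adamts3, which also activates VEGF-C and cuts reelin, had 23.8 and 26.1 CPM in left bulbs, against 24.4, 29.2 and 25.3 CPM in right bulbs. The sides overlapped, and it was not called (log2 fold change -0.16, adjusted p = 0.402). Adamts14 stood at 0.454 and 1.33 CPM in left bulbs, against 0.513, 1.26 and 1.16 CPM in right bulbs, and was not called (adjusted p = 0.855). Per kilobase of exon, Adamts3 had the highest level of all ADAMTS genes in right bulbs, at 4.84 ± 0.472 CPM per kilobase (SD, n = 3), though its values overlapped those of Adamts10 at 4.83 ± 0.710 CPM per kilobase.

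The promoter of Adamts2, the called gene with the largest log2 fold change, is shown as 300 bases of RefSeq's GRCm38.p6, 250 before and 50 after the transcription start (chr11:50601835-50602134, plus strand, 5′ to 3′). Capitals mark matches, on either strand, to the GC box GGGCGG, the letters bound by Sp1-type factors, and to the CCAAT box. It holds 5 GC boxes, no CCAAT box and no match to the TATA box letters TATAAA.
Adamts2: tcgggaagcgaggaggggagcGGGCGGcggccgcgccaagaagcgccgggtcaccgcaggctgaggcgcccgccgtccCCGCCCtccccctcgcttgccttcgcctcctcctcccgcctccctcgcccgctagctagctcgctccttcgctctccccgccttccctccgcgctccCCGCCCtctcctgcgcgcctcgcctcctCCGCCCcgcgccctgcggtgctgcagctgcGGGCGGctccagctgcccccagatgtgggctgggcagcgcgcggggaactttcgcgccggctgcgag
Of 32851 promoter windows of the same length, 35.7% hold a GC box, 37.4% a CCAAT box and 13.6% a TATA box. Of the 52 windows of the 49 collagen and ADAMTS genes with a window, 67.3% hold a GC box, 30.8% a CCAAT box and 13.5% a TATA box. The AP-1 letters TGANTCA were in 1.92% of these windows, against 7.81% of all. These matches describe letters, not binding.

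The proteases known to cut hyaluronan-binding proteoglycans, or closely related to those that do, comprised 7 genes. Of these, 1 rose on the left, none fell and 6 were not called. Adamts5 (chromosome 16, 85856173 to 85901828), a major aggrecanase, had 31.5 and 35.05 CPM in left bulbs, against 16.7, 17.1 and 19.2 CPM in right bulbs. Both left bulbs lay well above all right bulbs. The means were 33.3 ± 2.52 CPM (SD, n = 2) in left bulbs and 17.7 ± 1.32 CPM (SD, n = 3) in right bulbs (log2 fold change 0.83, SE 0.10, adjusted p = 0.00152). The log2 ratio was 0.80 in mouse 1037 and 0.78 in mouse 1039. Adamts1, which lies 53059 bases from Adamts5 on the same strand, had 24.2 and 12.2 CPM in left bulbs, against 19.0, 13.9 and 16.7 CPM in right bulbs. It was not called (log2 fold change 0.06, adjusted p = 0.915), and its ratio had opposite signs in mice 1037 (0.25) and 1039 (-0.51).

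Adamts20, the gene of the belted coat colour mutant, had 24.0 and 32.8 CPM in left bulbs, against 21.7, 22.9 and 22.5 CPM in right bulbs. The sides did not overlap, but the gene was not called (log2 fold change 0.26, adjusted p = 0.244). Adamts15 stood at 15.7 and 17.9 CPM in left bulbs, against 20.4, 21.3 and 16.7 CPM in right bulbs, with overlap and no call (adjusted p = 0.205). Adamts9 had 13.1 and 10.55 CPM in left bulbs, against 17.2, 13.7 and 12.01 CPM in right bulbs, also without a call (adjusted p = 0.247). Adamts8, the least abundant of the 7 per kilobase of exon, had a log2 fold change of -0.75 (SE 0.39, adjusted p = 0.275).

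A list of 9 genes for substrates of ADAMTS proteases held Acan, Bcan, Ncan, Vcan, Reln, Fbn1, Fbn2, Comp and Vwf. Of the 8 tested, 2 fell and 1 rose on the left, against 6.46% and 3.16% of all genes tested. Acan, which encodes aggrecan, had 23.1 and 22.8 CPM in left bulbs, against 35.2, 35.3 and 29.4 CPM in right bulbs (log2 fold change -0.62, adjusted p = 0.00752). Ncan, which encodes the proteoglycan neurocan, had 254 and 215 CPM in left bulbs, against 286, 277 and 297 CPM in right bulbs (log2 fold change -0.37, adjusted p = 0.0156). Reln, the secreted glycoprotein reelin, had 786 and 642 CPM in left bulbs, against 556, 482 and 552 CPM in right bulbs (log2 fold change 0.35, adjusted p = 0.0458). Over the 8 tested, every left bulb lay above every right bulb in 4, Reln included, against 33.2% of all genes tested. In 2, Acan and Ncan, it lay below, against 13.2%. Of 5 genes for metalloproteinase inhibitors (Timp1, Timp2, Timp3, Timp4 and the membrane-anchored Reck), 0 were called (1 at an unadjusted p under 0.05, and 0 by DESeq2 or limma-voom). Of 10 matrix metalloproteinases tested, only Mmp15, a membrane-bound enzyme, was called. It had 24.7 and 20.8 CPM in left bulbs, against 29.4, 32.1 and 29.7 CPM in right bulbs (log2 fold change -0.50, adjusted p = 0.0172).

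None of the other ADAMTS proteases (9 genes, 7 tested) was called, with 2 at an unadjusted p under 0.05. In 6 of the 7 the log2 fold change was positive. Adamts19 (chromosome 18, 58836667 to 59054060), known in humans for a role in heart valves, stood at 2.74 ± 0.626 CPM per kilobase of exon in right bulbs (SD, n = 3). It had 51.0 and 72.3 CPM in left bulbs, against 31.8, 35.2 and 48.4 CPM in right bulbs. Both left bulbs lay above the right ones, the lower of them narrowly. The log2 fold change was 0.60 (SE 0.18, adjusted p = 0.0646), while within mice the log2 ratios were 0.59 and 0.50. With the mouse as a replicate block, edgeR gave 0.55 (SE 0.09, adjusted p = 9.14e-04) and called it. Only mice with both bulbs inform this fit, so its SE leans on variance shared among genes. The same block in DESeq2 gave a wider SE of 0.17 (adjusted p = 0.0334) and also called it. Adamts10, linked in humans to fibrillin microfibrils, had 58.8 and 47.5 CPM in left bulbs, against 39.0, 34.5 and 46.1 CPM in right bulbs, without a call (log2 fold change 0.33, adjusted p = 0.140). Adamts6, Adamts7, Adamts16 and Adamts17 had log2 fold changes between 0.22 and 0.29. Adamts13, the protease of von Willebrand factor, held at most 4 reads and Adamts18 3 to 15 reads in the 5 bulbs compared, and neither was tested.

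The 5 ADAMTS-like genes encode matrix proteins that lack the protease domain. None was called (1 at an unadjusted p under 0.05), and their log2 fold changes lay between 0.08 and 0.54. Adamtsl1, the most abundant of them, had 19.9 and 20.6 CPM in left bulbs, against 19.0, 20.7 and 14.2 CPM in right bulbs. The sides overlapped (adjusted p = 0.774), and its counts are uncertain because the gene overlaps Sh3gl2. Adamtsl3 had 11.2 and 6.50 CPM in left bulbs, against 5.26, 6.36 and 5.67 CPM in right bulbs (adjusted p = 0.184).

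**Figure D2:**
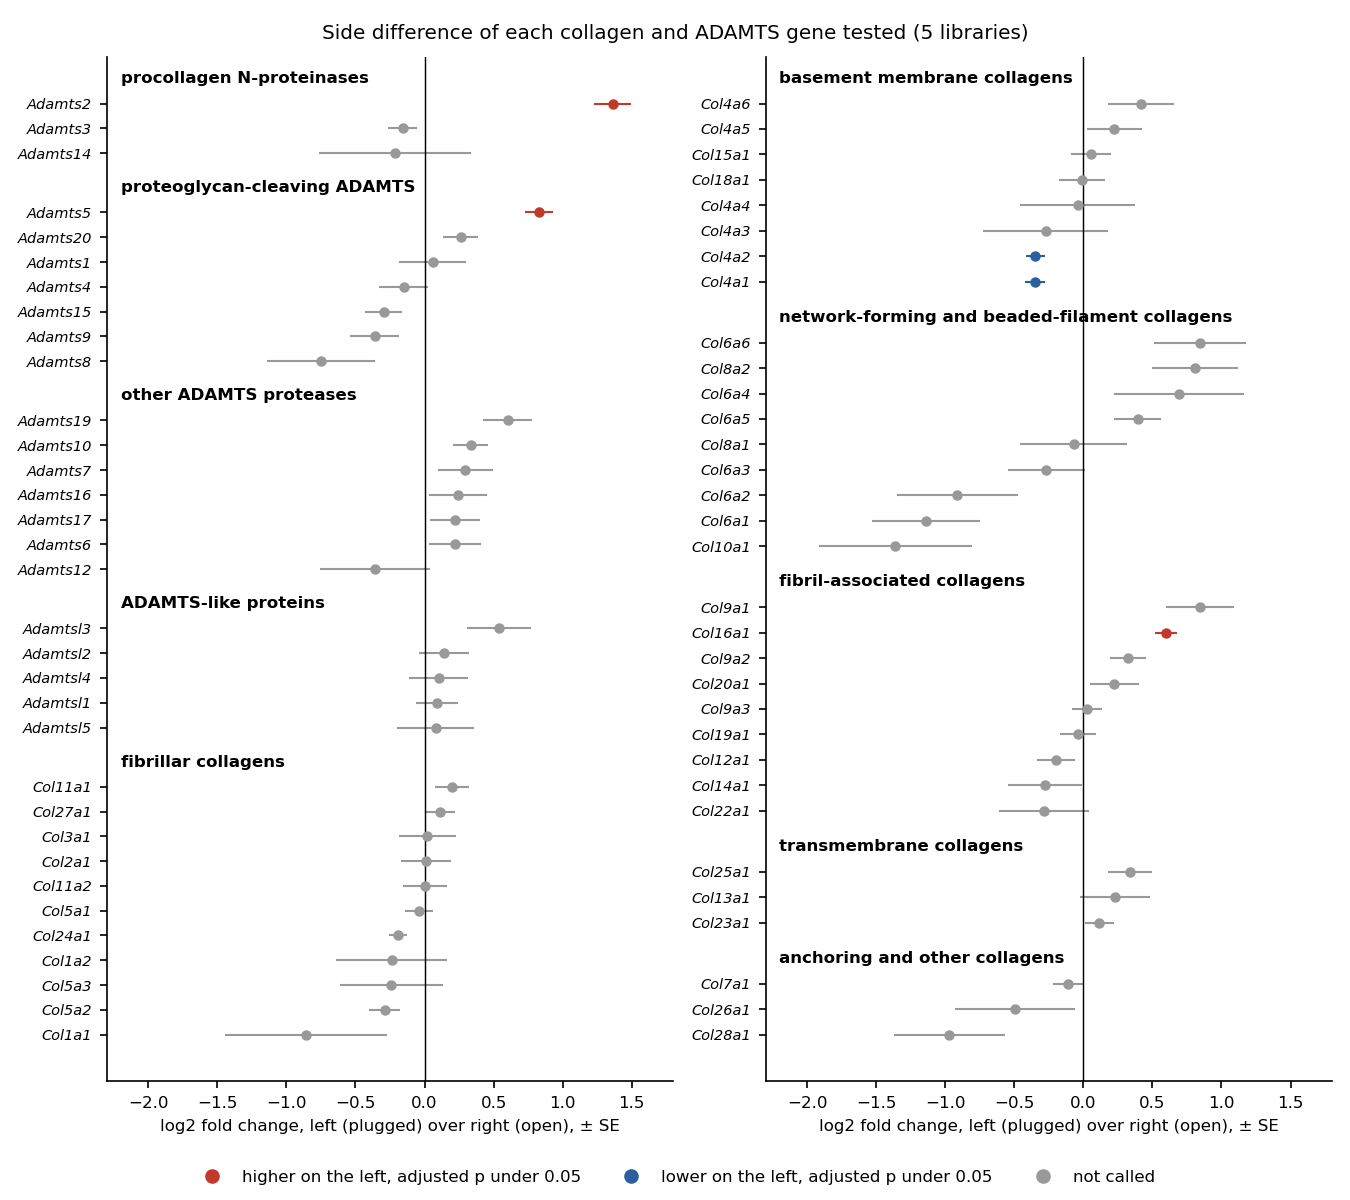
The x axis is the log2 fold change of left (plugged) over right (open) bulbs with its SE, and each row is 1 of the 65 genes tested, grouped by role. Red marks the 3 genes called higher on the left, blue the 2 called lower, and grey the 60 not called.

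The basement membrane collagens comprised 8 genes, of which 2 fell on the left, none rose and 6 were not called. Collagen IV of vessels is made of the chains encoded by Col4a1 and Col4a2, which lie head to head on chromosome 8 (11198423 to 11312826, and 11312805 to 11449287) and overlap by 22 bases. In right bulbs they had 11.96 ± 0.758 and 11.98 ± 0.564 CPM per kilobase of exon (SD, n = 3), and only Col6a1 among the 68 genes had a higher mean on this scale. Their promoters are shown because they share 78 bases (chr8:11312777-11312854), with transcription starts 21 bases apart and transcription in opposite directions. Each is given 5′ to 3′ on its own strand, for Col4a1 the minus strand (chr8:11312777-11313076) and for Col4a2 the plus strand (chr8:11312555-11312854). Capitals mark GC and CCAAT boxes on either strand, of which Col4a1 has 1 and 1, and Col4a2 has 3 and 1.
Col4a1: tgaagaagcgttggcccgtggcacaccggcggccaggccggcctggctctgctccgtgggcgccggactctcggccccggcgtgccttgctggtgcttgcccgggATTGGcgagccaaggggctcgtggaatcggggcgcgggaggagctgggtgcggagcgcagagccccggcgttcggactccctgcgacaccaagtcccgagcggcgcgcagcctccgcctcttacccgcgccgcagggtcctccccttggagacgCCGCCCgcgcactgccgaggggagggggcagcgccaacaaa
Col4a2: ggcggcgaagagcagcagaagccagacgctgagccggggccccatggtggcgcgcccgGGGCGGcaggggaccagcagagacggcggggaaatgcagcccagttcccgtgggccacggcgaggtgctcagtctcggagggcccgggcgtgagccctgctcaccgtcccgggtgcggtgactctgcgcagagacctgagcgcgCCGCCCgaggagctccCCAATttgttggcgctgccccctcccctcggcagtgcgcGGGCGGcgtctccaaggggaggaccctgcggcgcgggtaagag

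Col4a1 had 72.4 and 75.8 CPM in left bulbs, against 83.0, 94.0 and 90.8 CPM in right bulbs. Col4a2 had 67.0 and 65.0 CPM in left bulbs, against 75.5, 82.9 and 79.5 CPM in right bulbs. Every left bulb lay below every right bulb in both genes. The means of Col4a1 were 74.1 ± 2.38 CPM (SD, n = 2) in left bulbs and 89.3 ± 5.66 CPM (SD, n = 3) in right bulbs. After TMM scaling its log2 fold change was -0.35 (SE 0.07, adjusted p = 0.0134 in edgeR). With libraries scaled to their total it was -0.268 (adjusted p = 0.0406 in edgeR). The means of Col4a2 were 66.0 ± 1.42 CPM (SD, n = 2) in left bulbs and 79.3 ± 3.73 CPM (SD, n = 3) in right bulbs. Its log2 fold change was likewise -0.35 after TMM scaling (SE 0.07, adjusted p = 0.0114 in edgeR). Scaled to library totals it was -0.265 (adjusted p = 0.0351 in edgeR). The ratio of Col4a1 to Col4a2 stayed within 1.08 and 1.17 in left bulbs and within 1.10 and 1.14 in right bulbs. Both calls were lost without the right bulb of mouse 1038, at log2 fold changes of -0.31 for each and adjusted p = 0.0540 for Col4a1 and 0.0522 for Col4a2. Col4a1 also lost its call without the left bulb of mouse 1037 (adjusted p = 0.0661), and Col4a2 without that of mouse 1039 (adjusted p = 0.0632). Under DESeq2's replicate block for the mouse neither was called (log2 fold change -0.31 for each, adjusted p = 0.311 and 0.352).

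Markers of the vessel wall and of ensheathing glia are set beside these values. Of all genes tested, 6.46% were called lower on the left and 3.16% higher. The summed level of 8 endothelial genes was 315 and 340 CPM in left bulbs, against 319, 326 and 337 CPM in right bulbs, and 1 of the 8, Ly6c1, was lower (log2 fold change -0.32, adjusted p = 0.0379). The summed level of 8 mural cell genes was 287 and 269 CPM in left bulbs, against 292, 331 and 318 CPM in right bulbs, and 1 of the 8, Vtn, was lower (log2 fold change -0.54, adjusted p = 0.0336). Of 7 genes of olfactory ensheathing cells, the glia around incoming sensory axons, 2 (S100b and Mybpc1) were lower. These stood at 279.5 and 126.8 CPM in the library labelled left 1038, above every bulb. In 4 of the 7 every left bulb lay below every right bulb, against 13.2% of all genes tested. In 1, Prss56, it lay above (log2 fold change 0.50, not called), against 33.2%, and Sox10 had a log2 fold change of -0.03. The summed level of the 7 was 733 and 461 CPM in left bulbs, against 742, 801 and 793 CPM in right bulbs. Fabp7 made up 336 and 162.5 CPM of the left sums. The median log2 fold change of the 7 was -0.42. DESeq2 called 0 of the endothelial, 1 of the mural and 3 of the ensheathing genes. The part of these cells in the Col4a1 and Col4a2 difference was not tested.

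The other chains of collagen IV were far less abundant. Col4a5 had 15.1 and 10.55 CPM in left bulbs, against 8.21, 11.9 and 11.1 CPM in right bulbs, and Col4a6, whose gene lies head to head with it on chromosome X, had a log2 fold change of 0.42 (adjusted p = 0.326). Col4a3 and Col4a4, head to head on chromosome 1 and 71 bases apart, stood at 0.531 to 1.98 CPM in all 5 bulbs. Col18a1, the source of endostatin, had 16.7 and 11.5 CPM in left bulbs, against 13.5, 12.8 and 13.9 CPM in right bulbs (log2 fold change -0.01, adjusted p = 0.982), and its gene overlaps Slc19a1. Col15a1, a related basement membrane collagen, had 11.3 and 12.01 CPM in left bulbs, against 9.43, 10.4 and 12.01 CPM in right bulbs (adjusted p = 0.864). Of 13 other basement membrane genes tested, only Lama3, a laminin chain, was called, against 9.62% of all genes tested. It had 30.1 and 32.4 CPM in left bulbs, against 47.3, 42.3 and 48.5 CPM in right bulbs (log2 fold change -0.64, adjusted p = 0.00334).

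Of the 9 fibril-associated collagens, which sit on the surface of fibrils, 1 rose on the left, none fell and 8 were not called. Col16a1 (chromosome 4, 130047840 to 130099283) had 60.2 and 56.8 CPM in left bulbs, against 35.0, 36.2 and 38.4 CPM in right bulbs. The sides did not overlap. The means were 58.5 ± 2.43 CPM (SD, n = 2) in left bulbs and 36.5 ± 1.72 CPM (SD, n = 3) in right bulbs (log2 fold change 0.60, SE 0.08, adjusted p = 0.0022). Within mice 1037 and 1039 the log2 ratio was 0.69 and 0.48. Like Adamts2 and Adamts5, it was called in every alternative that kept both left bulbs and left out the library labelled left 1038. Without the left bulb of mouse 1037 the log2 fold change was 0.556 for Col16a1 and 0.908 for Adamts5. Without that of mouse 1039 it was 0.651 and 0.764. These alternatives share libraries, and the fit without mouse 1038 repeats the fit without its right bulb. With all 6 libraries it was not called.

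Col9a1, the first chain of collagen IX, had 5.31 and 5.18 CPM in left bulbs, against 3.02, 2.05 and 3.21 CPM in right bulbs. The sides did not overlap, and it was not called (log2 fold change 0.84, SE 0.24, adjusted p = 0.0607). Its partner chain Col9a2 had 35.2 and 26.1 CPM in left bulbs, against 23.7, 21.6 and 24.2 CPM in right bulbs (log2 fold change 0.32, adjusted p = 0.156). The third chain, Col9a3, had a log2 fold change of 0.03 (adjusted p = 0.920). Col12a1, which decorates collagen I fibrils, had 43.5 and 30.3 CPM in left bulbs, against 39.1, 37.2 and 43.8 CPM in right bulbs (adjusted p = 0.434).

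The summed level of 8 fibroblast and meningeal genes was 574 and 445 CPM in left bulbs, against 377, 309 and 388 CPM in right bulbs. The sides did not overlap in this sum. In edgeR 1 of the 8, Igf2, was called higher, against 3.16% of all genes tested, and DESeq2 called 3 of the 8. Igf2 had 230 and 214 CPM in left bulbs, against 135, 122 and 148 CPM in right bulbs (log2 fold change 0.64, adjusted p = 0.00163 in edgeR). Of 6 astrocyte genes, 3 were called higher, against 3.16% of all genes tested. The 6 summed to 2142 and 2120 CPM in left bulbs, against 1575, 1715 and 1752 CPM in right bulbs. Most of that gap lay in Gfap, with 543 and 578 CPM in left bulbs, against 221, 248 and 297 CPM in right bulbs, while Slc1a3 had a log2 fold change of -0.02 and Aldh1l1 of -0.23, neither called. The part of either cell type in the Adamts2, Adamts5 and Col16a1 differences was not tested. Dcn, a fibroblast gene of the first list, had 79.9 and 44.7 CPM in left bulbs, against 64.5, 55.2 and 67.4 CPM in right bulbs (adjusted p = 0.839).

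None of the 11 fibrillar collagens was called, with 2 at an unadjusted p under 0.05. Col24a1, a minor fibrillar collagen, was the most abundant of them per kilobase of exon in right bulbs, at 9.90 ± 0.505 CPM per kilobase (SD, n = 3). It had 71.0 and 68.8 CPM in left bulbs, against 72.3, 74.3 and 79.7 CPM in right bulbs. All left bulbs lay just below the right ones, without a call (log2 fold change -0.19, SE 0.07, adjusted p = 0.109). Col5a2, a chain of the collagen that sets fibril diameter, had 54.9 and 43.3 CPM in left bulbs, against 51.1, 61.7 and 57.3 CPM in right bulbs (log2 fold change -0.29, adjusted p = 0.149). Col3a1, a main collagen of vessel walls, had 19.6 and 11.5 CPM in left bulbs, against 13.2, 16.4 and 14.0 CPM in right bulbs (log2 fold change 0.02, adjusted p = 0.967). Col11a1, Col11a2, Col27a1, Col5a1 and Col2a1 had log2 fold changes between -0.04 and 0.20.

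Collagen I showed a single high library. Col1a1 had 26.6 and 22.3 CPM in left bulbs, against 17.8, 88.2 and 19.6 CPM in right bulbs. The high value was the right bulb of mouse 1038, and the remaining right bulbs lay below the left ones. Col1a2 had 69.3 and 41.5 CPM in left bulbs, against 36.7, 108 and 40.9 CPM in right bulbs. Neither was called (log2 fold change -0.86, SE 0.58 for Col1a1, and -0.24, SE 0.40 for Col1a2). The ratio of Col1a1 to Col1a2 was 0.384 and 0.537 in left bulbs, against 0.483, 0.818 and 0.479 in right bulbs. Within mice 1037 and 1039, the log2 ratio of left over right was 0.48 and 0.11 for Col1a1.

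Collagen VI showed the same bulb apart. Col6a1 had 103 and 128 CPM in left bulbs, against 133, 416 and 174 CPM in right bulbs, and per kilobase of exon it had the highest mean of all 68 genes in right bulbs, 55.0 ± 35.0 CPM per kilobase (SD, n = 3). Both left bulbs lay below the right ones. The log2 fold change was -1.14 (SE 0.39, adjusted p = 0.105), and without the right bulb of mouse 1038 it was -0.48 (SE 0.13, adjusted p = 0.0679). With the mouse as a replicate block in edgeR, where a mouse with 1 bulb adds nothing, it was -0.48 (SE 0.07, adjusted p = 3.66e-04) and called. Col6a2, on the same strand 85161 bases away, had 14.8 and 13.7 CPM in left bulbs, against 13.9, 46.2 and 16.0 CPM in right bulbs (adjusted p = 0.236). Col6a3, the third main chain, had 8.10 and 4.38 CPM in left bulbs, against 8.85, 5.63 and 6.83 CPM in right bulbs, with the right bulb of mouse 1038 the lowest on its side.

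Of the 62 collagen and ADAMTS genes considered (mean of at least 1 CPM over the 6 libraries), 3 (4.84%) stood over 2-fold higher in the right bulb of mouse 1038 than in any other of the 5, against 23 of 13841 genes (0.166%). Those were Col1a1, Col6a1 and Col6a2. In the same bulb 7 bone cell genes summed to 23.1 CPM, against 3.63 and 2.06 CPM in left bulbs and 3.85 and 3.89 CPM in the other right bulbs. Ibsp, bone sialoprotein, stood at 6.63 CPM in it, and Mepe, an osteocyte gene, at 1.39 CPM, with 0 counts of Mepe in the other 4. A list of 5 genes of nasal secretory epithelium and glands summed to 146 CPM in this bulb, against 3.69 and 5.91 CPM in left bulbs and 4.04 and 17.4 CPM in the other right bulbs. Bpifb9b stood at 60.8 CPM in it. Both lists were chosen after the values of this bulb were seen, and the part of such cells in the collagen I and VI values was not tested.

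**Figure D3:**
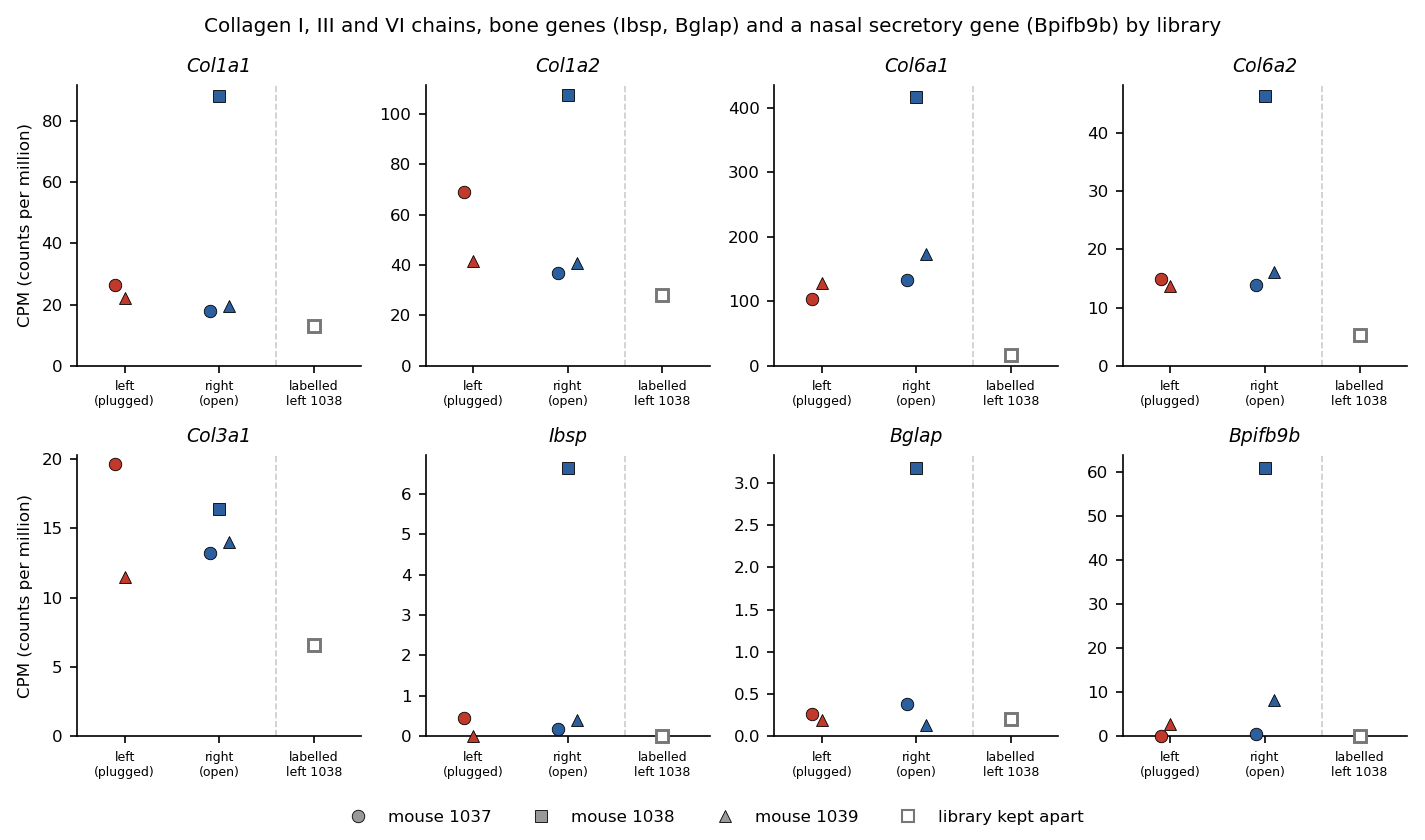
Each panel plots the CPM of 1 gene on the y axis in left (plugged) bulbs, right (open) bulbs and the library labelled left 1038, with a marker shape for each mouse. The right bulb of mouse 1038 is the highest in Col1a1, Col1a2, Col6a1 and Col6a2 and in Ibsp, Bglap and Bpifb9b, and not in Col3a1.

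Among the 9 network-forming and beaded-filament collagens none was called. At an unadjusted p under 0.05 lay 5, against 3573 of all 14412 genes tested. Of these, Col6a5, Col6a6 and Col8a2 were higher on the left and Col6a1 and Col10a1 lower. The cluster Col6a4, Col6a5 and Col6a6 on chromosome 9 had log2 fold changes of 0.70, 0.39 and 0.84 (adjusted p = 0.407, 0.192 and 0.153). Col6a5 had 13.0 and 19.6 CPM in left bulbs, against 12.1, 11.0 and 11.9 CPM in right bulbs, without overlap. Col8a2, a short-chain collagen known from the cornea, had 6.93 and 4.18 CPM in left bulbs, against 2.31, 4.17 and 2.53 CPM in right bulbs. It was not called (log2 fold change 0.81, adjusted p = 0.142). With the mouse as a replicate block it passed in edgeR (log2 fold change 1.10, adjusted p = 0.0201) but not in DESeq2. Col10a1, the collagen of hypertrophic cartilage, held 3 and 6 reads in left bulbs, against 9, 11 and 13 reads in right bulbs, and its counts are uncertain because the gene overlaps Nt5dc1. It was not called (log2 fold change -1.36, SE 0.56, adjusted p = 0.164).

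The transmembrane collagens span the cell membrane. None of the 3 tested was called, and none lay at an unadjusted p under 0.05. Limma-voom and DESeq2 called none of them either. Col23a1, at 10.55 ± 0.223 CPM per kilobase of exon in right bulbs (SD, n = 3) close to Col24a1, had 79.1 and 59.7 CPM in left bulbs, against 59.8, 59.8 and 62.0 CPM in right bulbs (log2 fold change 0.12, adjusted p = 0.553). Col25a1, whose shed form is known from amyloid plaques, had 10.7 and 9.82 CPM in left bulbs, against 8.27, 8.02 and 6.76 CPM in right bulbs (log2 fold change 0.34, adjusted p = 0.215). Col17a1, a hemidesmosome collagen of skin, held at most 6 reads in any bulb and was not tested.

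Of the 3 remaining collagens none was called, with 1 at an unadjusted p under 0.05. Col7a1, the anchoring fibril collagen of skin, had 30.8 and 30.9 CPM in left bulbs, against 28.4, 29.4 and 36.5 CPM in right bulbs (log2 fold change -0.11, adjusted p = 0.609). Col28a1, known from the sheaths of peripheral nerves, had 3.89 and 3.19 CPM in left bulbs, against 8.34, 2.92 and 8.40 CPM in right bulbs. In mouse 1038 the right bulb lay below both left bulbs, and in the other mice the right bulb was the higher. It was not called (log2 fold change -0.97, SE 0.40, adjusted p = 0.166). Without the right bulb of mouse 1038 it was called (log2 fold change -1.32, SE 0.21, adjusted p = 0.011). It was also called with the mouse as a replicate block in edgeR (log2 fold change -1.33, adjusted p = 0.00123), but not with that block in DESeq2.

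The bulbs of 1 mouse give a view that does not mix animals. The log2 ratio of left over right had the same sign in mice 1037 and 1039 for 33 of the 65 genes (50.8%), against 66.9% of all genes tested. In 22 of the 65 it was positive in both mice, against 4805 of all 14412 genes tested. In 11 it was negative in both, against 4830 of the 14412. Among those with the same sign were all 5 called genes, but the ratios reuse libraries behind the calls and give no separate support. Adjusted with the mouse as a replicate block, edgeR called 9 of the 65, which were 5 higher and 4 lower, against 10.8% of all genes (3.41% higher and 7.36% lower). The 4 added to the 5 were Col8a2, Adamts19, Col6a1 and Col28a1.

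**Figure D4:**
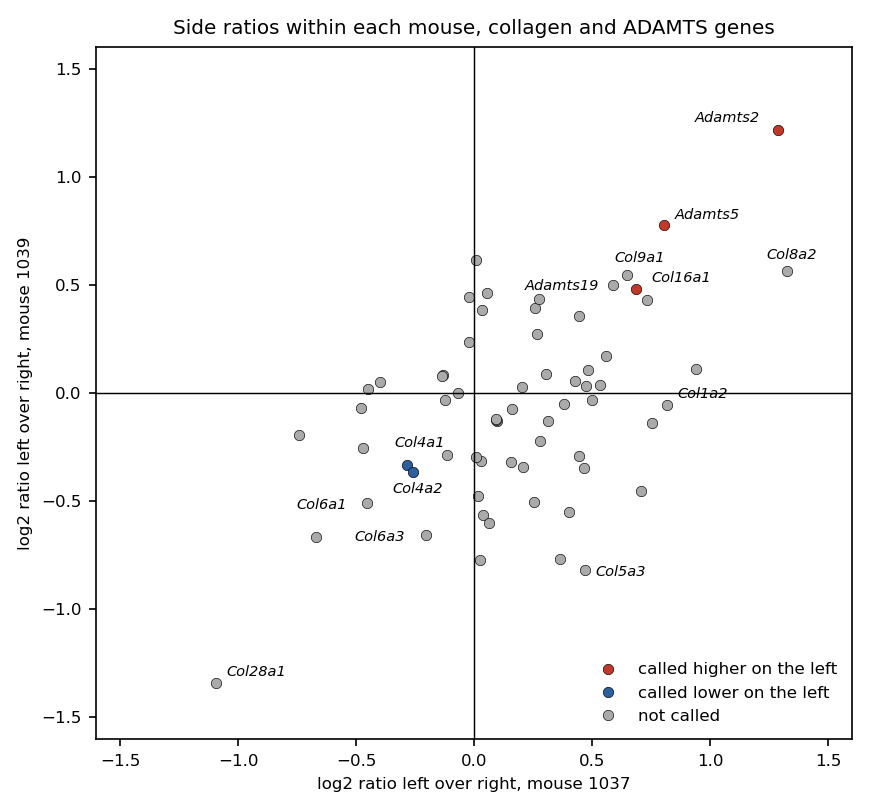
Each point is 1 of the 65 genes tested, with the log2 ratio of left over right in mouse 1037 (x axis) and in mouse 1039 (y axis). The ratios use TMM-scaled CPM, with 0.5 CPM added to each value. Adamts2, Adamts5 and Col16a1 lie in the upper right, Col4a1 and Col4a2 in the lower left, and many uncalled genes lie in the quadrants of opposite sign.

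Of 16 genes for hydroxylation and folding of procollagen, none was called by edgeR, with 5 at an unadjusted p under 0.05 and 1 called by DESeq2 and by limma-voom each. In 8 of the 16 every left bulb lay above every right bulb, against 33.2% of all genes tested, and in none below, against 13.2%. The median log2 fold change of the 16 was 0.08. Of the 5 at an unadjusted p under 0.05, P4ha1 and Plod2 were lower on the left and P3h3, P3h4 and Colgalt2 higher. P3h3, a prolyl 3-hydroxylase family gene, had 63.8 and 61.1 CPM in left bulbs, against 42.5, 42.9 and 53.0 CPM in right bulbs (log2 fold change 0.36, adjusted p = 0.0525). Serpinh1, the collagen chaperone HSP47, had 35.4 and 27.5 CPM in left bulbs, against 26.2, 22.7 and 25.7 CPM in right bulbs (adjusted p = 0.231). Of 8 tested genes for C-terminal processing and cross-linking, only Tll1, a tolloid-like propeptide protease, was called, against 9.62% of all genes tested. It had 13.1 and 8.96 CPM in left bulbs, against 22.0, 20.2 and 15.8 CPM in right bulbs (log2 fold change -0.89, SE 0.19, adjusted p = 0.0188). Bmp1, the main C-proteinase, had 85.9 and 78.5 CPM in left bulbs, against 90.2, 83.0 and 87.6 CPM in right bulbs (adjusted p = 0.180). Of 8 collagen receptor genes tested, none was called by edgeR, DESeq2 or limma-voom, with 2 at an unadjusted p under 0.05.

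The library labelled left 1038 differed widely in these genes, and as 1 library it has no test. Of the 62 genes with a mean of at least 1 CPM over the 6 libraries, 2 stood over 4-fold above the median of the other 5 libraries, against 3.03% of all genes. Of these, Adamts18 reached that mean only through this library, so the count is a description. Below it by over 4-fold stood 19 (30.6%), against 8.73% of all genes. Adamts18 stood at 74.05 CPM (1079 reads), against at most 0.972 CPM in left bulbs and 0.449 CPM in right bulbs. Col18a1 stood at 96.7 CPM, against 11.5 to 16.7 CPM in left bulbs and 12.8 to 13.9 CPM in right bulbs. At the low end, Adamts19, Col6a5 and Col14a1 had 1 read each, at 0.0686 CPM, and Adamts7, whose gene overlaps Tbc1d2b, had 3 reads. Col24a1 had 6 reads, at 0.412 CPM, against 68.8 to 71.0 CPM in left bulbs and 72.3 to 79.7 CPM in right bulbs. Adamts2 stood at 24.4 CPM, above every bulb, while Adamts5 stood at 1.92 CPM and Col16a1 at 11.1 CPM, below every bulb. Col4a1 stood at 27.1 and Col4a2 at 25.6 CPM, and their ratio, 1.06, was close to the 1.08 to 1.17 of the bulbs.

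**Figure D5:**
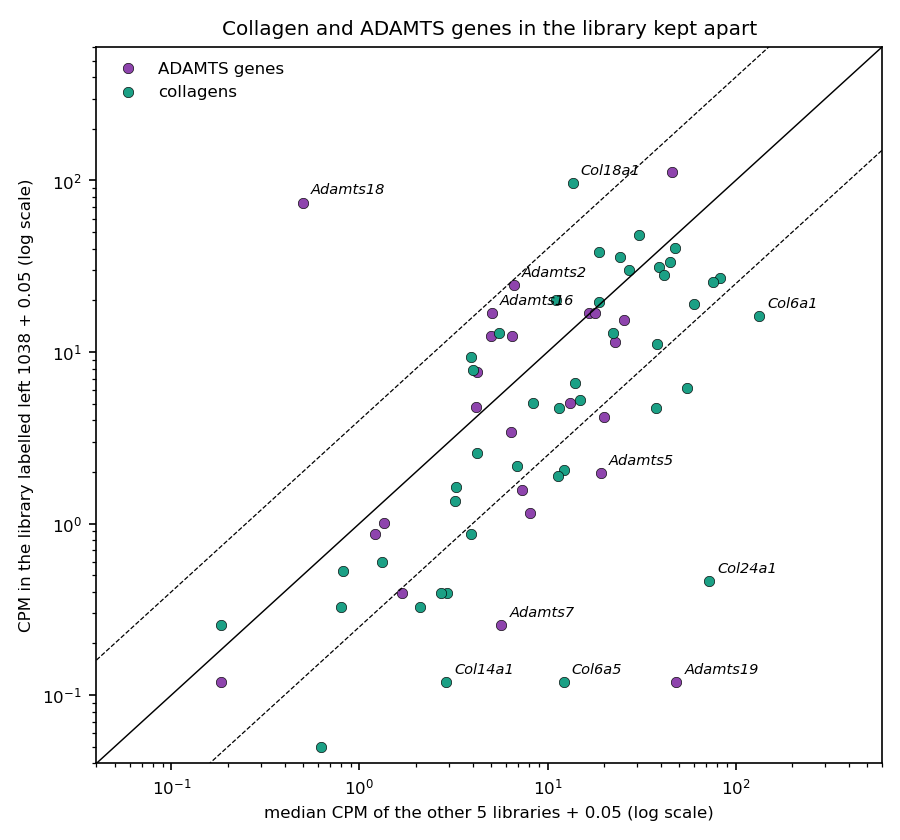
The x axis is the median CPM of the other 5 libraries and the y axis the CPM of the library labelled left 1038, both on log scales with a small constant added, for the 68 collagen and ADAMTS genes. The solid line marks equal values and the dashed lines 4-fold, with Adamts18 and Col18a1 above the upper one and Adamts19, Col24a1 and Col6a5 far below the lower one.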

How the data were processed

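Messenger RNA of 6 libraries was compared by side, per the labels. The deposited table holds whole-number read counts per gene and library with no normalization, per the file headers. It also holds RPKM values, per the file headers. The length behind each deposited RPKM lay within 1 base of the gene's span, introns included, for 78.41% of genes, so RPKM values were not used. The submitters' processing notes name the build GRCm38 and the tools HTSeq 0.6.1p2, TopHat2, DESeq 1.18.0 and cutadapt 1.2.1. The use of strand in counting is not given in the sources.

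CPM was computed as counts scaled to the total of the library. Ratios within mice used TMM-scaled CPM instead. Of the 22095 genes, 21852 were matched to a symbol. Genes were tested with edgeR 4.0.16 (quasi-likelihood, TMM, filterByExpr, side as the only term) in R 4.3.3 on 2 left and 3 right bulbs, with two-sided p-values adjusted by Benjamini-Hochberg over the 14412 genes tested. The SE is the log2 fold change over the square root of F. DESeq2 1.42.0 and limma-voom 3.58.1 were alternatives, and the test was checked on simulated data. Right and left bulbs of a mouse share an animal, so they are paired by design. Deviations from the side means correlated at 0.233 and 0.248 for mice 1037 and 1039. With 2 left bulbs the left deviations mirror each other, so these correlations are not separate measures.

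The genes, lists and tests were chosen with earlier results of these data known. Named are all called genes, the 3 with the smallest p in each direction among the rest, the most abundant of each role group, Adamts2, Adamts3, Adamts14, and the 3 farthest from the median in each direction in the library labelled left 1038. Further genes were named after their values were seen, to describe each role group. Intervals and limits of counts cover counting error only. No cause was tested, and bulbs taken from the same mouse may share technical spread.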

Additional observations from a re-analysis of the deposited data

Results flagged for a closer look

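In the library labelled left 1038, which was kept out of the comparison, Col18a1 stood at 96.7 CPM, against 13.92 CPM in the highest right bulb. Adamts18 stood at 74.05 CPM in it, against 0.449 CPM in the highest right bulb. Both were marked because a signal in a library outside the comparison lay above the open side. The same library held the cerebellar granule cell gene Cbln3 at 1217 CPM, against at most 1.10 CPM in left bulbs and 0.834 CPM in right bulbs, and the part of this in either value was not tested. Groups of 2 and 3 bulbs are too small for a test of single outlying bulbs.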

How the results depend on the processing

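Of all genes, 1387 were called, of the collagen and ADAMTS genes 5, and of the pathway genes 6. With all 6 libraries each count was 0 (1196 genes at an unadjusted p under 0.05, of which 2 were collagen or ADAMTS genes). With the mouse as a replicate block, DESeq2 called 432 genes and 3 pathway genes, and edgeR called 9 collagen and ADAMTS genes. Without both libraries of mouse 1038, 660 genes and 3 pathway genes were called, and among the 5 libraries this is the same fit as the one without its right bulb. Leaving out single bulbs gave 660 to 1096 genes, 4 to 9 collagen and ADAMTS genes and 2 to 8 pathway genes. The lowest counts of all genes and of collagen and ADAMTS genes came without the right bulb of mouse 1038, the 9 without the left bulb of mouse 1037, and the 2 pathway genes without the right bulb of mouse 1037. The cause was not tested. Where 1 left bulb remained, it was assumed to vary like the others. Scaling to total library size turned the split of calls to 975 higher and 589 lower, against 456 higher and 931 lower, and moved the median of all genes to 0.09. It called 7 collagen and ADAMTS genes, adding Col9a1 and Adamts19. The median log2 fold change of the collagens lay between -0.255 (all 6 libraries) and 0.078 (without the left bulb of mouse 1039), and that of the ADAMTS genes between -0.008 (all 6 libraries) and 0.204 (total library size).

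Among the named genes, directions turned in genes that were not called. With all 6 libraries the log2 fold change was -0.34 for Adamtsl1, 0.18 for Col7a1, -0.037 for Adamts20, -0.27 for Col23a1, -0.18 for Col6a5 and 1.62 for Col18a1. With total library size Col18a1 had 0.073. Without both libraries of mouse 1038 Adamts14 had 0.017. Leaving out single bulbs gave -0.055 to 0.203 for Adamtsl1, -0.166 to 0.009 for Col7a1, -0.100 to 0.317 for Col23a1, -1.157 to 0.365 for Adamts14 and -0.304 to 0.247 for Col18a1. The block changed the call of Adamts19, Col6a1, Col8a2 and Col28a1 in edgeR, and of Col4a1, Col4a2, Adamts19 and Col6a1 in DESeq2, and of no other collagen or ADAMTS gene. The 2 left bulbs limit the precision of every value.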
